A study of Arabidopsis thaliana with 12 samples.

Results

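The plant cell wall yields to turgor when the bonds between its polysaccharides are loosened. Expansins (EXPA, the alpha-expansins, and EXPB, the beta-expansins) loosen the wall at acidic pH without cutting it, and the expansin-like proteins (EXLA and EXLB) share their fold. Xyloglucan endotransglucosylases/hydrolases (XTH) cut xyloglucan, the hemicellulose that coats cellulose microfibrils, and most of them join the cut end to another chain. Both families are large in *Arabidopsis thaliana*, and members differ in the organ and cell type where they are expressed.

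The 52 genes described here are 19 EXPA, 5 EXPB, 4 EXLA or EXLB and 24 XTH genes, chosen by gene family from the 37336 genes counted. Their transcripts were measured by RNAseq in WT (Col-0) and in *pi4kß1ß2*, a double mutant carrying T-DNA insertions in both beta-type phosphatidylinositol 4-kinase genes. Roots and leaves of untreated seedlings 7 days old were collected, with 3 libraries of each genotype in each organ, 12 in all. Seedlings grew on solid medium with 1% sucrose and 0.8% agar at 22 °C under 16 h of light and 8 h of dark, and the methods describe each root replicate as RNA pooled from more than 70 plants. The double mutant is a single line, so its insertions and any other difference of that line from Col-0 cannot be told apart. The genes were to be compared between genotypes in roots, between labels in leaves, and between organs.

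Between 38116716 and 46577151 reads per library fell on genes, and values are given as normalized CPM, which are read counts scaled to a common library size with TMM factors over all 12 libraries. In roots both insertion-carrying genes matched the labels. *PI4Kß1* stood at 73.4, 79.0 and 71.1 CPM in WT and at 48.5, 47.3 and 48.5 CPM in *pi4kß1ß2*, and *PI4Kß2* stood at 14.6, 16.2 and 14.0 CPM in WT and at 7.18, 7.49 and 6.65 CPM in *pi4kß1ß2*. Reads on such a gene do not show an intact transcript. In leaves *PI4Kß2* stood at 11.8, 4.68 and 12.1 CPM in the libraries labelled WT and at 11, 6.33 and 6.72 CPM in those labelled *pi4kß1ß2*. The library labelled WT leaf replicate 2 was thus the lowest of the 6 and the library labelled *pi4kß1ß2* leaf replicate 1 stood nearest to the other libraries labelled WT. Leaf results are therefore given per library, and again without this pair. Leaf markers (5 photosynthesis genes) summed to 44720 CPM or more in each leaf library and to 359.7 CPM or less in each root library, so the organs matched their labels.

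The promoters of 4 members are printed because 2 of them rose most among the tested expansins in *pi4kß1ß2* roots and the other pair marks root hair cells. Each is the stretch of 250 bases before the annotated gene start, 5′ to 3′ on the plus strand, from RefSeq (build TAIR10.1, a later release of the TAIR10 assembly that the authors used). *EXPA7* (AT1G12560, chr1:4276255-4276504) and *EXPA18* (AT1G62980, chr1:23331313-23331562) carry the root hair element in capitals, whose first base lies 78 and 40 bases before the gene start. *EXPA10* (AT1G26770, chr1:9259182-9259431) carries TGTCTC 119 bases before its start. *EXPA12* (AT3G15370, chr3:5190304-5190553) carries TGTCGG, read on the other strand, 81 bases before its start. Both are shown in capitals. *EXPA7* carries TGTCTC as well, 21 bases before its start, which is left in lower case.
EXPA7: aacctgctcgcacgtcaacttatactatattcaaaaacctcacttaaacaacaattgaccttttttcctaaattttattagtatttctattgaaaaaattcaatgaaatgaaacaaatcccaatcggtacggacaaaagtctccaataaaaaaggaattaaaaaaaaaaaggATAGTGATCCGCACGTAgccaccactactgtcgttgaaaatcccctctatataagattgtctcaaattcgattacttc
EXPA18: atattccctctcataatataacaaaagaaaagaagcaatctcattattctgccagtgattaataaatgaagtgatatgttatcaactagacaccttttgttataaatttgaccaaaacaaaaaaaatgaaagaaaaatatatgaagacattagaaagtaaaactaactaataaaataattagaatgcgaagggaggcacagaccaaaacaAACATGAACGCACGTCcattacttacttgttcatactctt
EXPA10: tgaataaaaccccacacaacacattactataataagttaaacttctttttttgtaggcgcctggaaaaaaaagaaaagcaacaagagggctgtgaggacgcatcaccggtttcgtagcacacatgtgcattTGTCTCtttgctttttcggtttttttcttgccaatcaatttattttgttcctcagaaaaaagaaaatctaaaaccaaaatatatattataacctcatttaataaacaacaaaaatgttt
EXPA12: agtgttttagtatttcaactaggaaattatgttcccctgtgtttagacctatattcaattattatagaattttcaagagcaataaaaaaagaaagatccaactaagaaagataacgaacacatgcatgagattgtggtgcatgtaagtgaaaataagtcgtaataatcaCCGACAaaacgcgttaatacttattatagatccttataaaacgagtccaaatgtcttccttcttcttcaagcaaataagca

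Motifs were searched on both strands of the same window in all 27443 annotated promoters. The root hair element was present in 0.754% of them and in 2 of the 52 members, the pair shown. TGTCTC was found in 10.9% of all promoters and 4 members, and TGTCGG in 4.16% and 3 members. CGTGTG or CGTGCG, the letters bound by brassinosteroid-regulated factors, occurred in 6.71% of all promoters and 9 members. Those counts include both root hair elements shown, which overlap a CGTGCG match. The W-box (TTGACC or TTGACT) occurred in 28.4% and 11 members and the G-box (CACGTG) in 6.49% and 1 member. A match describes the letters only.

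In roots, alpha-expansins were mostly higher and XTH transcripts mostly lower in *pi4kß1ß2* among the members that changed. The 2 beta-expansins and the 1 expansin-like gene that changed were lower. Of the 52 genes, 45 passed the filter of 1 CPM in at least 3 of 6 libraries, and the quasi-likelihood test of edgeR (Benjamini-Hochberg adjusted p under 0.05, over all genes) called 11 higher and 13 lower. Over all 19694 genes tested, 26.6% were called, 11.3% higher and 15.2% lower. The median log2 fold change of the tested members was −0.10 and their median absolute value 0.51, beside 0.01 and 0.13 over all genes. In 13 tested members every mutant library lay above every WT library and in 17 below it, beside 21.1% and 23.5% of all genes, and all called members were among these. By class, 8 of 16 tested EXPA rose and 1 fell, both tested EXPB fell, 1 of 4 expansin-like genes fell, and 3 of 23 XTH rose and 9 fell. As these are whole roots, fewer cells of a type and less RNA per cell cannot be told apart.

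**Figure D1:**
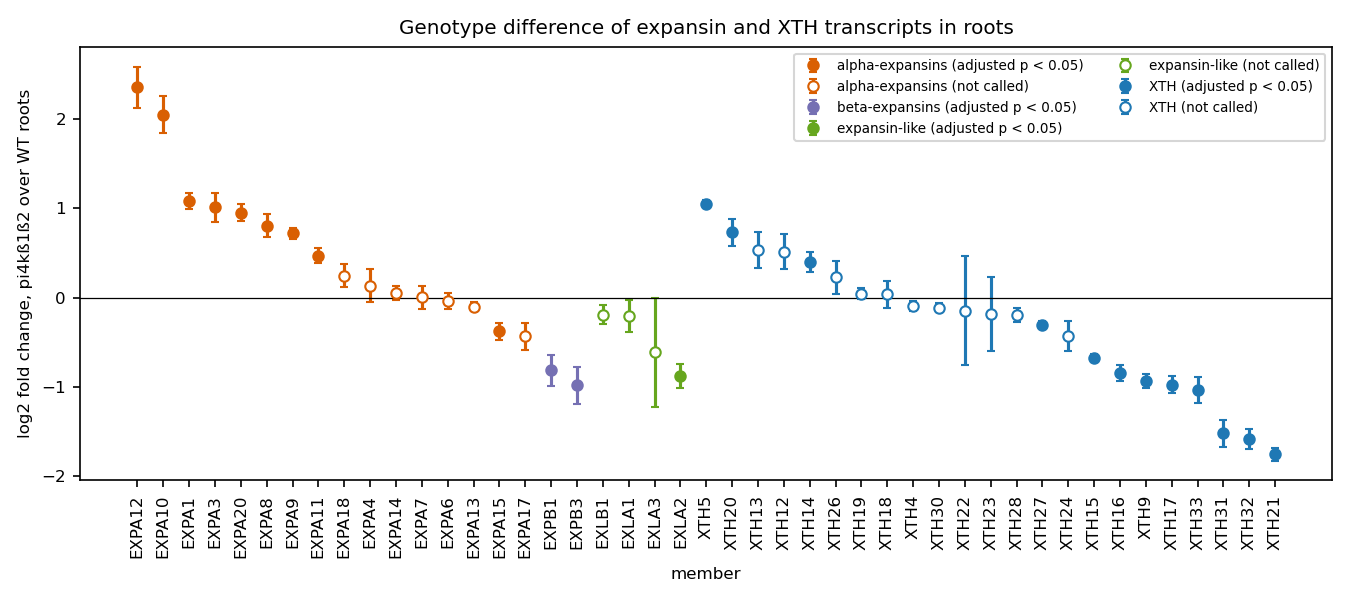
The y axis gives the log2 fold change of *pi4kß1ß2* over WT roots and the x axis the 45 tested members, grouped by class; bars are the standard error (n = 3 and 3 libraries) and filled points are adjusted p under 0.05. The 8 EXPA that rose stand at the left, between 0.47 and 2.36, and the 9 XTH that fell at the right, between −0.30 and −1.76.

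Among the tested expansins the largest change was that of *EXPA12*, an alpha-expansin of low level (chromosome 3, 5190554 to 5192197, 3 exons). It stood at 0.39, 0.29 and 0.57 CPM in WT roots and at 2.26, 2.05 and 2.15 CPM in *pi4kß1ß2* roots, with 15 to 29 and 101 to 122 reads. It passed the filter of 1 CPM only through the mutant libraries. Under the stricter filter, or when a mutant library was left out, it was not tested, which left 11 alternatives. All mutant libraries lay above all WT libraries, 5.12-fold by the fit (log2 2.36 ± 0.23 SE, adjusted p = 0.00033, edgeR). *EXPA10*, an alpha-expansin of growing leaves and petioles (chromosome 1, 9259432 to 9261313), stood at 5.56, 4.07 and 3.82 CPM in WT and at 14.3, 19.9 and 21.2 CPM in *pi4kß1ß2* roots. It was 4.15-fold higher (log2 2.05 ± 0.21 SE, adjusted p = 0.0012), and the genotypes did not overlap.

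*EXPA1*, an expansin of expanding tissues, was measured at 58.6, 47.2 and 51.8 CPM in WT roots and at 104, 110 and 119 CPM in mutant roots, 2.12-fold higher (adjusted p = 0.00023, edgeR). *EXPA3* stood at 3.13, 3.00 and 2.21 CPM in WT and 6.61, 5 and 5.15 CPM in the mutant, 2.02-fold higher (adjusted p = 0.0034). Neither gene's groups overlapped. *EXPA8*, *EXPA9*, *EXPA11* and *EXPA20* rose by smaller steps, with log2 fold changes of 0.81, 0.72, 0.47 and 0.95. *EXPA9* had the smallest p of the alpha-expansins, with 60.3, 62.2 and 62.0 CPM in WT and 101, 92.4 and 110 CPM in *pi4kß1ß2* roots (adjusted p = 0.00019). *EXPA15* was the alpha-expansin that fell, by 0.38 on the log2 scale (adjusted p = 0.030), and it lost its call in 4 of the 6 fits that left out a library.

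*EXPA4* was the most abundant alpha-expansin of roots per length of transcript, at 130 CPM per kb in WT and 143 CPM per kb in the mutant. It stood at 226, 166 and 195 CPM in WT and at 170, 238 and 236 CPM in *pi4kß1ß2* roots, and the groups overlapped (log2 0.14 ± 0.18 SE, adjusted p = 0.64). The other alpha-expansins without a call were *EXPA6*, *EXPA7*, *EXPA13*, *EXPA14*, *EXPA17* and *EXPA18*, whose log2 fold changes ran from −0.43 to 0.25. *EXPA14* and *EXPA17* are known from lateral root growth. *EXPA17* stood at 9.01, 7.92 and 7.57 CPM in WT and at 5.20, 5.40 and 7.46 CPM in the mutant, groups that did not overlap while the test was not passed (log2 −0.43 ± 0.15 SE, adjusted p = 0.070).

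Beta-expansins went the other way. *EXPB3* (chromosome 4, 13999625 to 14002124) stood at 173, 114 and 144 CPM in WT roots and at 58.6, 79.7 and 78.9 CPM in *pi4kß1ß2* roots. *EXPB1* stood at 28.9, 34.8 and 43.1 CPM and at 23.3, 19.2 and 18.1 CPM. Both were lower in every mutant library than in any WT library, 1.98-fold and 1.76-fold (adjusted p = 0.022 and 0.021, edgeR), and both calls were lost when either *pi4kß1ß2* replicate 2 or *pi4kß1ß2* replicate 3 was left out (highest adjusted p over all alternatives 0.059 and 0.081). Of the expansin-like genes *EXLA2* fell, from 13.0, 14.2 and 15.3 CPM in WT to 9.21, 7.62 and 6.33 CPM in the mutant (1.84-fold, adjusted p = 0.0036). *EXLA1*, the most abundant of them in roots, overlapped between genotypes at 49.6, 44.7 and 36.1 CPM and 43.4, 39.6 and 29.8 CPM (log2 −0.21 ± 0.18 SE, adjusted p = 0.47). *EXLB1* and *EXLA3* had no call either, with log2 fold changes of −0.19 and −0.62.

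**Figure D2:**
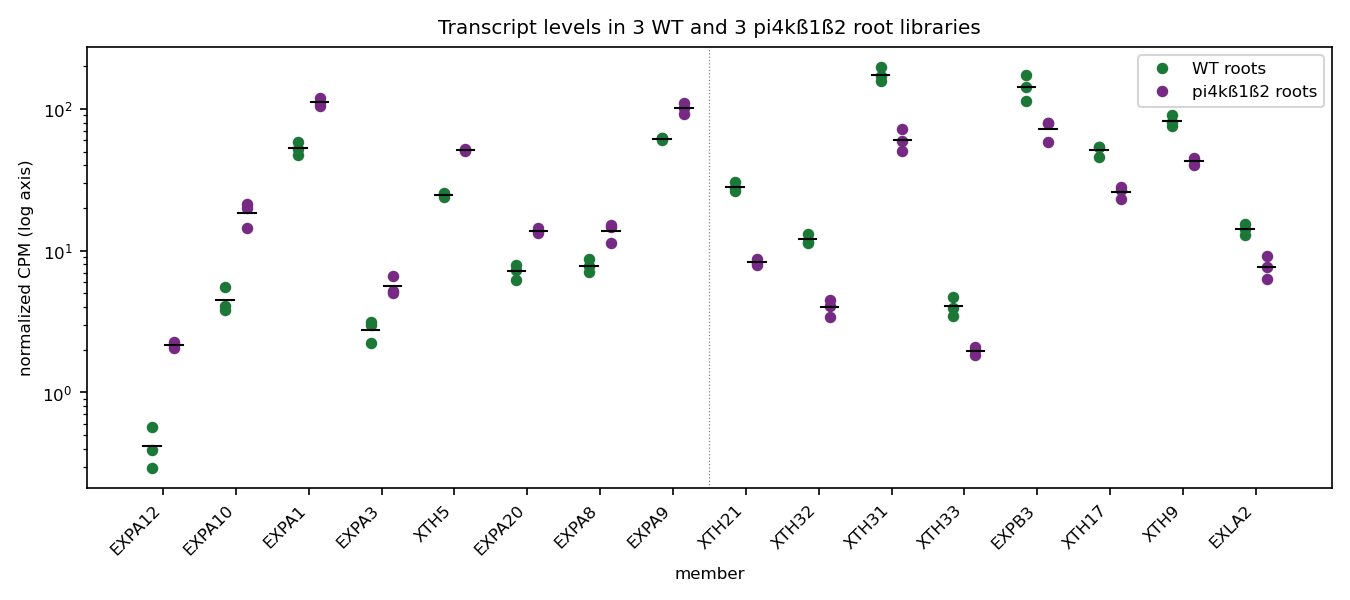
The y axis gives normalized CPM on a log scale in the 3 WT (green) and 3 *pi4kß1ß2* (purple) root libraries for 8 members that rose, left of the dotted line, and 8 that fell; points are libraries and lines are means. In each gene the genotypes separate, from *EXPA12* at 0.29 to 0.57 against 2.05 to 2.26 CPM to *XTH31* at 158 to 197 against 50.8 to 72.3 CPM.

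Among the 24 XTH members *XTH21*, needed for normal primary root growth, fell most. It was measured at 26.3, 27.6 and 30.2 CPM in WT roots and at 7.97, 8.16 and 8.67 CPM in *pi4kß1ß2* roots, 3.38-fold lower (log2 −1.76 ± 0.07 SE, adjusted p = 9.7e-06, edgeR). The libraries of each genotype lay close together and far from the other genotype. Of the 75-base stretches of its exons 4.62% occur elsewhere in the genome, where reads with several hits were left out in all libraries alike.

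*XTH31* and *XTH32* belong to the branch of the family whose members are known as xyloglucan hydrolases. *XTH31* (chromosome 3, 16446935 to 16448844) stood at 197, 158 and 169 CPM in WT and at 50.8, 58.9 and 72.3 CPM in the mutant. *XTH32* (chromosome 2, 15472607 to 15474828) stood at 11.5, 11.4 and 13.2 CPM and at 4.46, 3.41 and 4.08 CPM. These genes were 2.87-fold and 3.01-fold lower, without overlap (adjusted p = 0.0015 and 9.2e-05, edgeR). Per length of transcript *XTH31* was the third most abundant member in WT roots at 125 CPM per kb.

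*XTH33*, an XTH with a membrane anchor, stood at 3.45, 3.97 and 4.71 CPM in WT and at 1.98, 2.09 and 1.83 CPM in the mutant, 2.05-fold lower (adjusted p = 0.0015, edgeR). *XTH9*, *XTH15*, *XTH16*, *XTH17* and *XTH27* also fell, with log2 fold changes of −0.94, −0.68, −0.84, −0.97 and −0.30. *XTH17* is a root-expressed relative of *XTH18*, *XTH19* and *XTH20*, which gave other values. *XTH18* and *XTH19* were at 0.04 and 0.05 on the log2 scale without a call, and *XTH20* rose by 0.73, a call lost in 3 of the 6 fits that left out a library.

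*XTH5* rose with little spread between libraries. It stood at 25.0, 24.1 and 25.4 CPM in WT roots and at 51.8, 50.4 and 51.4 CPM in *pi4kß1ß2* roots, 2.07-fold higher (log2 1.05 ± 0.04 SE, adjusted p = 9.7e-06, edgeR). *XTH24* (also known as MERI5), the most abundant member of WT roots per length at 144 CPM per kb, stood at 172, 186 and 164 CPM in WT and at 159, 127 and 101 CPM in the mutant, a difference without overlap that did not pass the test (adjusted p = 0.13). The 11 XTH without a call had log2 fold changes between −0.43 and 0.53.

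Root hair members were followed as a group because their transcripts come mainly from one cell type. *EXPA7* stood at 26.8, 27.3 and 29.9 CPM in WT and at 26.6, 23.8 and 33.5 CPM in *pi4kß1ß2* roots, groups that overlapped (log2 0.00 ± 0.13 SE, adjusted p = 0.99, edgeR). *EXPA18* stood at 25.3, 27.0 and 29.1 CPM and at 32.5, 26.4 and 37.3 CPM, and *XTH26* at 8.04, 11.6 and 12.8 CPM and at 12.3, 11.4 and 14.3 CPM. Both overlapped as well (log2 0.25 ± 0.13 and 0.23 ± 0.18 SE). *XTH14* stood at 84.3, 94.4 and 98.2 CPM in WT and 122, 104 and 138 CPM in the mutant, higher without overlap (log2 0.40 ± 0.11 SE, adjusted p = 0.042), a call lost in 5 of the 6 fits without a library and, with an adjusted p of 0.62, in the fit of all 12 libraries. *XTH12* stood at 17.0, 18.0 and 21.4 CPM in WT and at 23.4, 22.4 and 34.4 CPM in the mutant, and *XTH13* at 11.6, 14.1 and 18.0 CPM and at 19.7, 18.1 and 25.3 CPM. Neither gene's groups overlapped, and neither passed the test (log2 0.51 ± 0.20 and 0.53 ± 0.20 SE, adjusted p = 0.12 and 0.11, edgeR).

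Other root hair genes were measured beside them. Of 7 root hair markers that are no members, 1 rose (*PRP3*), 1 fell (*RSL2*) and 5 had no call, and their sum ranged from 218.0 to 265.5 CPM in WT and from 259.9 to 343.4 CPM in *pi4kß1ß2* roots. *LRX1*, a root hair wall protein, stood at 35.9, 40.4 and 49.0 CPM in WT and 56.7, 51.5 and 69.0 CPM in *pi4kß1ß2*, without a call. Of 4 meristem markers 3 rose, *PLT1*, *PLT2* and *WOX5*, by log2 0.31, 0.58 and 0.96. Of 5 markers of other root tissues and of nutrient uptake *PYK10* and *CASP1* fell (log2 −0.71 and −0.57) and *IRT1*, the root iron transporter, rose (log2 2.48), and the sum of the 5 was 6831 to 7824 CPM in WT and 4343 to 4608 CPM in *pi4kß1ß2* roots, without overlap. *PYK10* alone stood at 7622, 6768 and 6616 CPM in WT and at 4298, 4150 and 4395 CPM in the mutant, so it made up most of that sum. Leaf markers summed to between 201.3 and 359.7 CPM in WT roots and between 98.0 and 184.6 CPM in mutant roots, without overlap and with 1 of 5 called lower, so the summed leaf marker level differed between the groups. The part of these cell types in the member changes was not tested.

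The other 7 members did not pass the filter in roots. *EXPB4* had no read in any library, for which a limit of 3 reads per library was taken (0.0644 to 0.0787 CPM without TMM factors). *EXPB5* had 1 read in 1 WT root library. *EXPA2* had 1 to 3 reads in WT and 4 to 19 in mutant roots, and *EXPB2* 15 to 24 and 7 to 19. *EXPA5*, *EXPA16* and *XTH25* had at most 50 reads in any root library, and these were counted at up to 706 reads in leaves.

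The same wall pathway has further genes outside the 52. Of 36 such genes (17 other family members, 14 of xyloglucan synthesis, 3 of its breakdown and 2 proton pumps) 22 were tested in roots, and 4 rose and 5 fell. *XTH7* was the most changed of them and of all XTH genes tested. It stood at 44.3, 44.3 and 44.0 CPM in WT roots and at 4.93, 4.85 and 4.92 CPM in *pi4kß1ß2* roots (log2 −3.17 ± 0.04 SE, adjusted p = 5.9e-08, edgeR), the genotypes being far apart. *XTH10* rose (log2 1.18) and *XTH8* fell (log2 −0.48). Genes that make the xyloglucan backbone and side chains moved less, with *CSLC12* higher and *CSLC5* and *XLT2* lower among 14. The plasma membrane proton pumps *AHA1* and *AHA2*, whose activity acidifies the wall, rose by log2 0.16 and 0.44.

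In leaves 47 members were tested between labels, and 2 were called, both lower in the libraries labelled *pi4kß1ß2*, where 10.5% of all 19470 genes were called (3.72% higher and 6.76% lower). *EXPA3* stood at 71.9, 74.8 and 71.2 CPM in the libraries labelled WT and at 29.2, 24.0 and 33.7 CPM in those labelled *pi4kß1ß2*, 2.54-fold lower (adjusted p = 0.0092, edgeR). *XTH15*, a shade-induced XTH (chromosome 4, 8137020 to 8138392), stood at 738, 430 and 548 CPM and at 109, 83.9 and 157 CPM, 4.97-fold lower (adjusted p = 0.014). Both genes separated the 6 libraries by their labels, the pair in doubt included. Each call was lost when WT leaf replicate 1, WT leaf replicate 3 or *pi4kß1ß2* leaf replicate 2 was left out, with adjusted p of at most 0.057 and 0.073. In these fits, in that order, 0.0929%, 0.103% and 0.0208% of all genes were called higher and 0.191%, 0.248% and 0.0417% lower.

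Most other members did not follow the leaf labels. *XTH14* stood at 14.9, 47.5 and 18.3 CPM in the libraries labelled WT and at 8.98, 20.5 and 22.8 CPM in those labelled *pi4kß1ß2*. *XTH5* stood at 14.5, 24.1 and 12.9 CPM and at 6.94, 17.0 and 17.1 CPM. In both genes the pair in doubt held the highest and the lowest library of the 6. Root hair markers summed to 74.8 CPM in the library labelled WT leaf replicate 2 and to 21.7 CPM in the library labelled *pi4kß1ß2* leaf replicate 1, the highest and the lowest of the leaf libraries too. Whether root RNA in the leaf libraries had a part in these values was not tested.

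**Figure D3:**
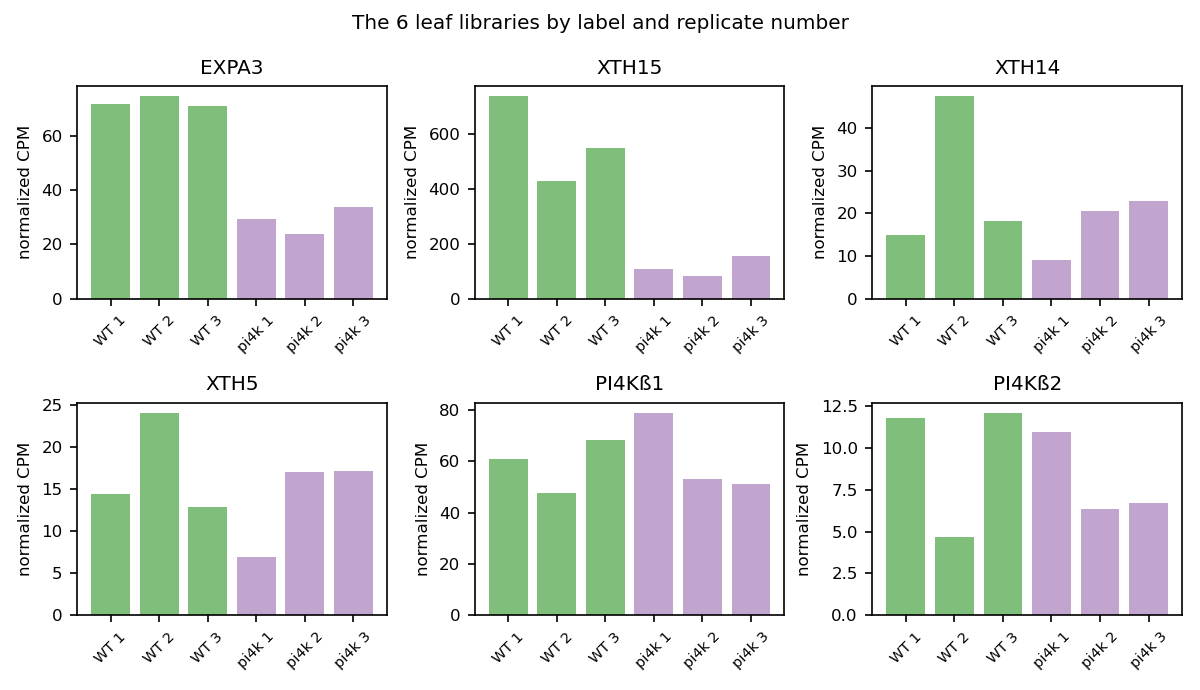
Bars give normalized CPM in each of the 6 leaf libraries, labelled WT (green) or *pi4kß1ß2* (purple, written pi4k) with the replicate number, for 4 members and both kinase genes. *EXPA3* and *XTH15* separate by label, while *XTH14*, *XTH5*, *PI4Kß1* and *PI4Kß2* do not.

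Without the pair in doubt, 11 members were higher and 5 lower between leaf labels, beside 27.0% of all genes called (13.0% higher and 14.0% lower). The 5 were *EXPA3*, *XTH15*, *EXPA11*, *XTH9* and *XTH32*, so both genes called with all 6 libraries were among them. The 11 were *EXPA4*, *EXPA9*, *EXPA10*, *EXPA15*, *EXPB3*, *EXLB1*, *XTH12*, *XTH13*, *XTH17*, *XTH20* and *XTH25*. Only 2 libraries per label entered this fit.

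Between organs, members separated strongly in WT. Of 47 tested, 20 were higher and 19 lower in roots than in leaves, beside 73.7% of all genes called (36.3% and 37.4%). In *pi4kß1ß2* 24 of 48 were higher and 20 lower, beside 78.6% of all genes (39.3% in each direction). Without the leaf library in doubt of each label the counts were 23 and 17 in WT and 24 and 18 in *pi4kß1ß2*. Over all genes these fits called 7493 higher and 7317 lower of 19454 in WT, and 7786 and 7577 of 19534 in *pi4kß1ß2*. Scaling by library size alone moved the median of all genes by 0.48 in WT and 0.57 in *pi4kß1ß2* on the log2 scale, and under it *EXPA11* in WT lost its call and took the opposite sign, as no other called member did under any alternative run. *EXPA5*, *EXPA16* and *EXPA3* were the most leaf-enriched members of WT, at log2 −6.93, −6.62 and −4.71. *EXPA5* and *EXPA16* passed the filter only through the leaf libraries. They had 3 to 13 and 2 to 7 reads in WT root libraries, so the size of their values rests on few root reads. *EXPA5* stood at 18.1, 16.9 and 20.3 CPM in leaves labelled WT and at 0.065, 0.25 and 0.12 CPM in WT roots, so the organs were far apart.

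The root-enriched side held *XTH21* (log2 3.66 in WT and 2.15 in *pi4kß1ß2*), *EXPA14* (2.78 and 3.02) and the root hair members *EXPA7*, *EXPA18*, *XTH12*, *XTH13*, *XTH14* and *XTH26*, which were between 1.78 and 2.26 in WT and between 2.40 and 2.79 in the mutant. Per length of transcript the members highest in WT leaves were *XTH15* at 474 and *XTH4* at 310 CPM per kb, followed by *XTH22* and *XTH24*. In leaves labelled *pi4kß1ß2* they were *XTH22* at 437 and *XTH24* at 399 CPM per kb, and *XTH15* was at 96.7 CPM per kb. This value of *XTH22* included 1157 CPM in *pi4kß1ß2* leaf replicate 1, the library in doubt. The other libraries of that label held 551.5 and 377.8 CPM, so the place of *XTH22* above *XTH24* rested on the library in doubt. The organ difference had opposite signs in the labels for *EXPA11*, *XTH17*, *XTH18* and *XTH23*, and among these *EXPA11* was called in both. *EXPA11* was lower in roots than leaves in WT and higher in *pi4kß1ß2* (log2 −0.33, adjusted p = 0.048, and 0.79, adjusted p = 0.0058, edgeR). Its WT libraries overlapped between organs, and the WT call was lost in 9 of 15 alternatives, one of them the fit without the library in doubt, while the call in *pi4kß1ß2* was kept in all 15. *XTH17* was higher in roots in WT (log2 1.03) and had no call in *pi4kß1ß2* (log2 −0.19).

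**Figure D4:**
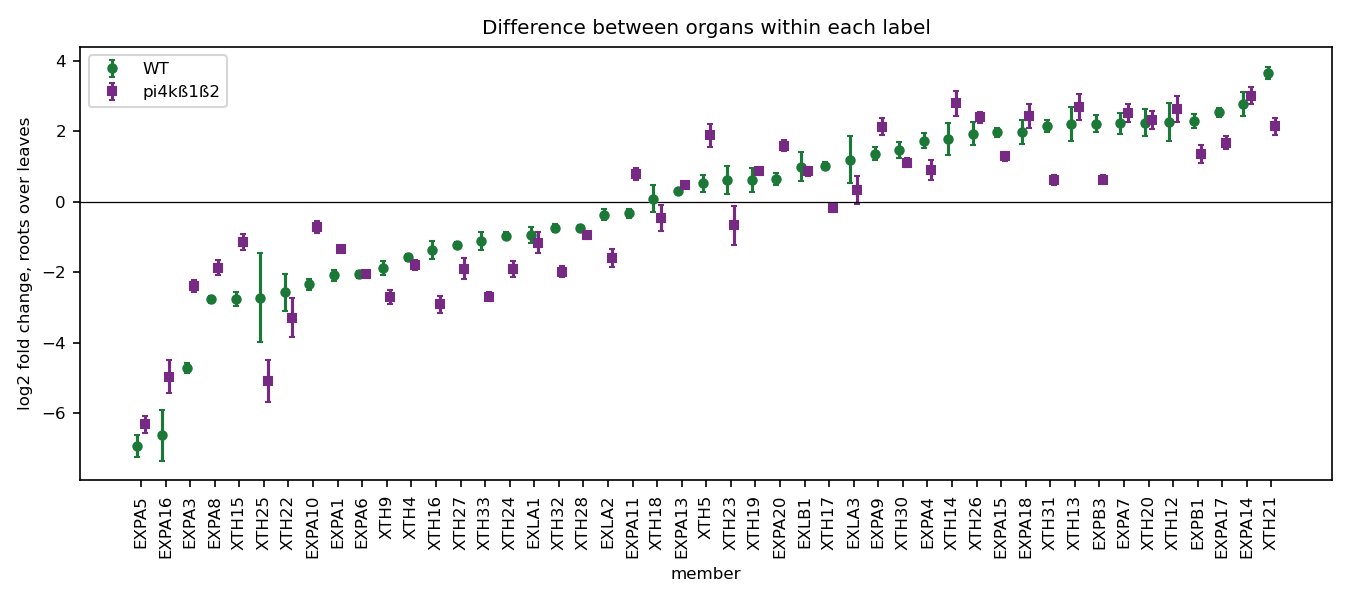
The y axis gives the log2 fold change of roots over leaves within WT (green circles) and *pi4kß1ß2* (purple squares) for the 47 members tested in both, in order of the WT value; bars are standard errors (n = 3 and 3 libraries). *EXPA5* lies at −6.93 and −6.32 at the left and *XTH21* at 3.66 and 2.15 at the right.

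Whether the genotype effect differed between organs was tested over all 12 libraries. Of 48 members tested, 8 had a higher and 11 a lower effect in roots than in leaves, where 22.4% of all genes were called (10.3% and 12.1%). The largest positive difference among called members was that of *EXPA3*, which rose in roots and was lower in leaves labelled *pi4kß1ß2* (log2 difference 2.33 ± 0.22 SE, adjusted p = 0.00036, edgeR). *XTH15* was lower in both organs, by 0.68 on the log2 scale in roots and more in leaves (difference 1.61). The values of *EXPA10*, *XTH5* and *EXPA11* were 1.63, 1.37 and 1.12, and the call of *XTH5* was lost in 9 of 21 alternatives. Members without a call had differences as large, such as *EXPA12* at 2.06 and *XTH25* at −2.37, with standard errors of 1.07 and 1.68.

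The most negative differences among called members were those of *EXPB3* (−1.60), *XTH33* (−1.57), *XTH16* (−1.55), *XTH31* (−1.53) and *XTH21* (−1.51), genes called lower in roots and not between leaf labels. *XTH16* stood at 16.8, 19.2 and 21.1 CPM in WT and 10.9, 10.1 and 10.8 CPM in *pi4kß1ß2* roots. In leaves it stood at 55.9, 31.0 and 59.1 CPM in the libraries labelled WT and at 110, 63.4 and 64.4 CPM in those labelled *pi4kß1ß2*, where no library labelled WT reached the *pi4kß1ß2* ones. *XTH17* stood at 45.7, 53.8 and 54.0 CPM in WT roots and at 26.7, 23.2 and 28.0 CPM in mutant roots, and at 22.5 to 27.0 and 27.3 to 30.7 CPM in leaves. Without the pair in doubt, 7 members had a higher and 16 a lower effect in roots, 7 and 10 of them as before, beside 32.2% of all genes called.

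The other members with a positive difference were *EXPA1*, *EXPA8* and *EXPA20*, all higher in mutant roots. *EXPA1* stood at 200, 197 and 274 CPM in leaves labelled WT and at 272, 283 and 294 CPM in leaves labelled *pi4kß1ß2*. *EXPA8* stood at 8.71, 7.08 and 7.77 CPM in WT and 14.6, 11.4 and 15.1 CPM in mutant roots, and at 54.3, 56.4 and 49.9 CPM and 40.5, 44.3 and 65.6 CPM in leaves. The root libraries of *EXPA8* separated by genotype while its leaf libraries overlapped. *EXPA20* behaved alike, at 7.97, 6.20 and 7.28 CPM against 14.4, 13.8 and 13.3 CPM in roots and at 3.88, 5.44 and 4.29 CPM against 3.47, 5.22 and 5.02 CPM in leaves.

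*EXPA11* differed in direction, with 45, 41.2 and 36.0 CPM in WT and 59.8, 52.0 and 57.2 CPM in mutant roots. In leaves it stood at 43.7, 54.6 and 55.2 CPM in the libraries labelled WT and at 24.0, 36.0 and 37.5 CPM in those labelled *pi4kß1ß2*, lower without overlap and without a call (adjusted p = 0.075, edgeR). *EXPA10* stood at 21.1, 23.6 and 23.4 CPM and at 26.7, 30.2 and 33.9 CPM in leaves, higher without overlap and also without a call (adjusted p = 0.063). Its rise in roots was larger by 1.63 on the log2 scale. *XTH15* stood at 82.1, 85.2 and 86.8 CPM in WT roots and at 51.8, 55.1 and 51.6 CPM in mutant roots, a separation without overlap that was smaller than in leaves.

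Of the members with a negative difference, *EXPA15* stood at 116, 92.9 and 102 CPM in WT and 73.3, 78 and 87.3 CPM in mutant roots, and at 23.9, 31.1 and 24.3 CPM and 27.4, 34.7 and 35.2 CPM in leaves. The leaf libraries of *EXPA15* overlapped between labels. *EXPA17* was low in leaves, at 1.26, 1.5 and 1.44 CPM in the libraries labelled WT and at 1.94, 1.88 and 1.83 CPM in those labelled *pi4kß1ß2*, higher without overlap and without a call. *EXPB3* was likewise higher there, at 29.2, 39.1 and 23.9 CPM and 47.7, 45 and 48.2 CPM, the reverse of its order in roots (adjusted p = 0.090 in leaves, edgeR). *EXLA2* overlapped in leaves, at 19.3, 14.4 and 21.4 CPM and 32.1, 20.4 and 17.6 CPM.

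The XTH members that fell most in roots did not separate by label in leaves in all cases. *XTH21* was near its lowest there, at 2.12, 1.73 and 2.79 CPM in the libraries labelled WT and at 2.65, 1.57 and 1.39 CPM in those labelled *pi4kß1ß2*. *XTH31* stood at 31.3, 42.6 and 43.9 CPM and at 39.8, 42.0 and 36.1 CPM. Both overlapped between labels. *XTH32* stood at 20.1, 17.8 and 22.2 CPM and at 18.9, 14.2 and 14.0 CPM, which overlapped too, and it was called lower once the pair in doubt was left out. *XTH33* stood at 9.79, 5.87 and 10.7 CPM and at 14.4, 11 and 12.7 CPM. *XTH24*, which had no call in roots, stood at 301, 355 and 357 CPM and at 617, 456 and 376 CPM in leaves. In *XTH33* and *XTH24* every leaf library labelled *pi4kß1ß2* lay above every one labelled WT, without a call.

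A further split ran with the replicate number rather than with genotype, and was chosen after its values were seen. *XTH22*, known as the touch-induced gene TCH4, stood at 110, 96.0 and 32.3 CPM in WT roots, at 81.4, 95.9 and 37.2 CPM in mutant roots, at 592, 536 and 286 CPM in leaves labelled WT and at 1160, 552 and 378 CPM in leaves labelled *pi4kß1ß2*. Replicate 3 was the lowest of each group. The same held for *XTH23*, *XTH18*, *EXLA1* and *EXLA3*, so for 5 of 48 members, and for 5.51% of all 20765 genes. The labels give no shared day or batch for these numbers. The standard errors of the genotype difference of *XTH22*, *XTH23* and *EXLA3* in roots, 0.61, 0.42 and 0.61, were the largest of the tested members.

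**Figure D5:**
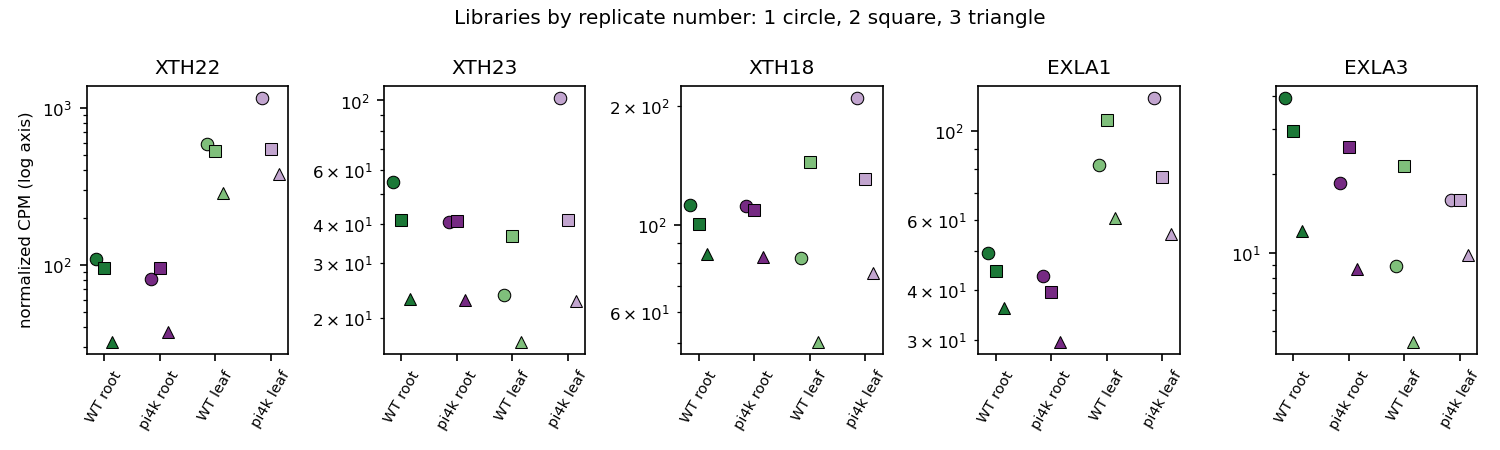
The y axes give normalized CPM on log scales for 5 members in the 4 groups, with replicate 1 as a circle, 2 as a square and 3 as a triangle; pi4k stands for *pi4kß1ß2*. The triangle is the lowest point of every group in every panel, as for *XTH22* at 32.3 CPM in WT roots.

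Several members lie next to each other in the genome. *XTH18* and *XTH19* are neighbours on chromosome 4, with 1500 bases between them, beside *XTH24*, and *XTH13*, *XTH25* and *XTH22* follow each other on chromosome 5. Some neighbours had alike values in roots and others did not. *XTH18* and *XTH19* were at 0.04 and 0.05 on the log2 scale without a call. *XTH12* and *XTH13*, with 1 protein-coding gene between them, were at 0.51 and 0.53, also without a call. *XTH25* was below the filter in roots while *XTH22* next to it stood at 32.3 to 110 CPM, and *XTH14* rose in roots beside *XTH23*, which had no call.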

How the data were processed

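RNAseq (stranded polyA libraries, single reads of 75 bases) was run on 12 libraries, 3 in each of 4 groups, and groups came from the sample labels. The methods of the paper cover roots alone. Reads were trimmed with Trimmomatic, freed of ribosomal sequences with sortMeRNA and aligned by STAR to TAIR10. Per gene, the authors deposited unnormalized read counts in 3 columns (unstranded and each strand), without multi-hits. The column of the library strand was used. Reads on no gene, with several hits or unmapped stayed out of library sizes, and 97.0% to 97.3% of reads fell on a gene. PCR reads without molecular identifiers are not independent molecules, so the limit of 3 counts covers counting error only. The methods call the root replicates biological repetitions without saying whether they were separate cultures, so p-values measure the spread between these libraries.

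A gene was tested where 3 or more libraries of a fit reached 1 CPM, with edgeR 4.0.16 (glmQLFit with robust estimation, glmQLFTest, TMM, Benjamini-Hochberg over all genes, threshold 0.05) in R 4.3.3, and the script was tested on simulated data. Standard errors were derived from the F statistic. Other settings tried were DESeq2 1.42.0, the likelihood ratio test of edgeR, RLE or library size scaling, other filters, unstranded counts, a single fit of the 12 libraries, a replicate block, each library left out in turn, and both leaf libraries in doubt left out. Members and gene lists were chosen with earlier results of these data known. Values per library are given for members called in roots with a log2 fold change of at least 1 in size, the smallest p and highest level of each class, root hair members, and members called in leaves or the interaction. The count files hold no coordinates. Positions, exon lengths and promoters came from the RefSeq annotation of TAIR10.1 (Python 3.11.15).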

Additional observations from a re-analysis of the deposited data

Results flagged for a closer look

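For 19 members the genotype effect in roots differed from the effect of the label in leaves by a test of the difference itself (edgeR's interaction contrast, adjusted p under 0.05), and the leaf labels are in doubt for 2 libraries. Differences are on the log2 scale, roots minus leaves. The positive ones were *EXPA1* (0.74), *EXPA3* (2.33), *EXPA8* (0.90), *EXPA10* (1.63), *EXPA11* (1.12), *EXPA20* (0.94), *XTH5* (1.37) and *XTH15* (1.61). The negative ones were *EXPA15* (−0.68), *EXPA17* (−0.86), *EXPB3* (−1.60), *EXLA2* (−1.23), *XTH16* (−1.55), *XTH17* (−1.21), *XTH21* (−1.51), *XTH24* (−0.95), *XTH31* (−1.53), *XTH32* (−1.24) and *XTH33* (−1.57). Without the pair of leaf libraries in doubt, *EXPA8* and *XTH24* were no longer called. Over 21 alternatives *XTH5* lost its call in 9, *EXPA15* and *XTH24* in 8 each, *EXPA8* in 7 and *EXLA2* in 1, and *EXPA20* lost it in 2 of 20, while the other 13 kept theirs. Groups of 3 libraries are too small for a test of single outlying libraries.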

How the results depend on the processing

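In the fit of all 12 libraries 7 members rose and 8 fell in roots, in place of 11 and 13. Over all 19694 genes 688 rose and 1741 fell in that fit, in place of 2233 and 3000. When single libraries were left out 8 to 11 members rose and 10 to 13 fell in roots. Among all genes (19516 to 19569 tested) these fits called 1415 to 1845 higher and 2333 to 2495 lower. Between leaf labels DESeq2 called 3 higher and 4 lower, the likelihood ratio test 3 higher and the fit of all 12 libraries 2 higher and 4 lower, in place of 0 and 2. The shares over all genes rose as well, to 8.68% higher and 10.5% lower with DESeq2, 5.52% higher with the likelihood ratio test, and 12.6% and 15.2% with all 12 libraries. Leaving out single libraries gave 0 to 2 members in each direction there, beside 0.0208% to 4.73% of all genes higher and 0.0417% to 6.82% lower. Leaving out the pair in doubt gave 11 and 5 members. The 0 members called higher by edgeR stand beside 5801 of 19470 genes at an unadjusted p under 0.05. For the interaction the leave-one-out counts were 5 to 8 members higher and 9 to 13 lower. Over all genes these fits called 1295 to 2479 higher and 1965 to 3099 lower, beside 2135 and 2507 with every library. Between organs the counts moved by less than 1.5 times under each alternative. Same-numbered root libraries had deviations from their group means that correlated at −0.03, 0.18 and 0.43. For WT root replicates 2 and 3 the mutant library of the same number correlated best, and for replicate 1 it did not. Libraries of replicate 3 also correlated between organs, at 0.298 in WT and 0.305 in *pi4kß1ß2*. With the replicate number as a block 13 members rose and 13 fell in roots, *EXPB1* and *EXPB3* lost their calls, and 1 member was higher between leaf labels. Over all genes the block gave 2013 higher and 2854 lower of 19694 in roots, and 3.33% higher between leaf labels. *EXPA7*, without a call in roots, changed sign to −0.0095 with the block, −0.0021 with all 12 libraries, and ranged from −0.15 to 0.10 without single libraries (−0.029 and −0.018 without WT replicates 1 and 2). *EXLA2* was at 0.11 between WT organs with library size scaling, without a call in either fit. Of 1307 alternative values of named members, 1228 kept direction and side of the threshold, 65 lost and 8 gained a call and 6 changed sign; the cause was not tested. Depth limits *EXPB4*, *EXPB5* and *EXPA2*, at 3 or fewer reads in WT root libraries.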

Other observations

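The summed level of the 24 XTH members was 1428 to 1565 CPM in WT roots and 1185 to 1297 CPM in *pi4kß1ß2* roots, that of the 5 beta-expansins 149.3 to 202.7 and 82.1 to 99.2 CPM, and that of the 19 alpha-expansins 603.3 to 707.5 and 742.2 to 863.7 CPM. The sum over all 52 members was 2353 to 2605 and 2212 to 2254 CPM. No pair of these ranges overlapped. The sum of the 4 expansin-like genes did overlap, at 85.89 to 129.8 CPM in WT and 65.31 to 94.56 CPM in *pi4kß1ß2* roots. So did that of all 28 expansin and expansin-like genes, at 863.4 to 1040 and 918.8 to 1026 CPM. In the leaf libraries the XTH sum ranged from 2261 CPM in *pi4kß1ß2* leaf replicate 3 to 3902 CPM in *pi4kß1ß2* leaf replicate 1. *BGAL10*, a beta-galactosidase acting on xyloglucan, stood at 114, 83.2 and 106 CPM in leaves labelled WT and at 35.8, 36.7 and 48.8 CPM in leaves labelled *pi4kß1ß2*, without overlap (log2 −1.34 ± 0.17 SE, adjusted p = 0.014, edgeR). *AXY8*, a fucosidase acting on xyloglucan, was higher by the same labels (log2 0.46, adjusted p = 0.028). *XTH6*, outside the members, was counted at 39.3 to 82.6 CPM in leaves and at 0.29 CPM or less in roots.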
